A study of Mus musculus with 22 samples.

Results

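The regions described are the loci of 8 genes with strongly closed peaks in hepatocyte chromatin of these livers, taken from the most negative changes among peaks of above-median abundance: Dkk4, Trhde, Adgrf1, Prex1, Camk2b, Pard3b, Ttc36 and Gm30332. A locus was every peak that the deposited table assigns to the gene and places at most 50000 bp from its start, which gave 37 peaks of the 68827 in the table. In each locus the closed peak was the one with the most negative change against control in any comparison, mild or advanced, of either diet. Only peaks above the median average abundance of all peaks were considered. The genes were therefore chosen on measured falls, and the falls of the 8 closed peaks and of their loci in the comparisons that chose them are descriptions without a test. A diet is said to choose a gene if the closed peak ranked among its 8 most negative advanced or 4 most negative mild changes. By this rank, Dkk4 and Prex1 were chosen in both diets. Trhde, Camk2b, Pard3b and Gm30332 were chosen by the choline-deficient diet only, and Ttc36 and Adgrf1 by the fructose-based diet only. A test is given for these 6 genes in the diet that did not choose them by rank, whose mice are different animals. The abundance filter averaged all 22 libraries, and the pick of the closed peak within a locus looked at both diets, so both used values of that diet too. At all 6 genes the closed peak had a higher mean in controls than in mild or advanced mice of the same diet, which helped it pass the filter. Their tests are therefore not wholly free of the choice. The closed peak of Pard3b passed most narrowly of these 6, at 3.339 against a median of 3.31 in log2 units. At the edge of the choice, the closed peak of Trhde was the 8th most negative in the advanced comparison of the choline-deficient diet, with a log2 fold change of −3.50. The 9th, near Cmah, stood at −3.32. Not every gene ranked this high is among the 8 described here. In that comparison, peaks near Gm13547 (−4.09) and A930013F10Rik (−3.56) ranked above Trhde and are left out. In the advanced comparison of the other diet the 8th peak, near Tmem50a, stood at −3.46 and the closed peak of Gm30332, the 9th, at −3.42. Left out there were Tmem50a and the peaks near 4930482G09Rik (−3.63), Mcm5 (−3.61), Nfkbiz (−3.53) and Slc7a15 (−3.47). Among the 4 most negative peaks of each mild comparison, the only genes described here were Adgrf1 and Pard3b.

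The assay was ATAC-seq: a transposase inserts sequencing adapters where DNA is open, and reads pile up there. The nuclei came from livers of male HEP-INTACT mice, in which tagged hepatocyte nuclei are pulled down on beads. Neither the promoter driving the tag nor the mice's age is stated in the sources used here. Each of the 22 libraries came from a different mouse. One arm received FPC, rich in fructose, palmitate and cholesterol, during 20 weeks. The other received CDAHFD, a high-fat diet that lacks choline, during 7 weeks. Controls of each arm were kept equally long on low fat diet, so diet and feeding time cannot be told apart between the arms. The submitters split the mice on each fatty liver diet by liver histology into mild and advanced steatohepatitis, with significant fibrosis in the advanced group only and steatosis and inflammation in both. Each arm had 4 control, 4 mild and 3 advanced mice. Because the groups were split on histology, a difference between mild and advanced compares mice sorted by outcome under 1 diet.

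Summed peak counts per library ran from 3785066 to 9328963, and libraries of a group correlated at r of 0.925 to 0.969 across peaks. All 8 hepatocyte genes on a marker list were measured, and their summed signal over peaks within 50 kb ran from 1874 to 2042 CPM (counts scaled to a common library total) in FPC controls and from 1383 to 1629 CPM in FPC advanced mice (1777 to 1949 and 1521 to 1626 CPM in the CDAHFD arm). Cholangiocyte genes (6 of 6 measured) ran from 62.5 to 76.1 CPM in FPC controls and from 152 to 219 CPM in FPC advanced mice, and from 61.3 to 73.0 and 121 to 155 CPM in the CDAHFD arm. The 2 measured of 5 lymphocyte genes, Ptprc and Themis, ran from 125 to 140 CPM in FPC controls and from 58.5 to 62.3 CPM in FPC advanced mice, and from 115 to 131 and 67.6 to 84.9 CPM in the CDAHFD arm. Among 6 stellate genes only Reln and Col1a1 had peaks, with sums of 26.9 to 43.8 CPM in FPC controls and 47.1 to 65.3 CPM in advanced mice (37.6 to 50.8 and 44.8 to 57.4 CPM with CDAHFD). Among 6 macrophage genes only Adgre1 and Csf1r had peaks, with 10.7 to 16.4 and 18.3 to 21.5 CPM (10.9 to 15.4 and 19.6 to 21.2 CPM with CDAHFD), and Clec4f, Timd4, Cd68 and Vsig4 had none. The 4 measured of 6 endothelial genes summed to 130 to 149 CPM in FPC controls and 121 to 130 CPM in advanced mice (149 to 190 and 125 to 152 CPM with CDAHFD). The part of other cell types or of hepatocyte signal in the falls described here was not tested, and fewer open nuclei cannot be told apart from less opening per nucleus.

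Active regulatory DNA is depleted of nucleosomes. A promoter holds the start of a transcript, while enhancers lie at a distance, often in introns or in neighbouring genes, and are bound by the factors that set a cell's identity and its response to diet or injury. Many CpG-rich promoters are open in most cell types, while enhancers differ more between cell types and states. The 8 genes have unrelated products. Dkk4 is a secreted Wnt antagonist that binds LRP co-receptors, Trhde is a membrane metallopeptidase that inactivates thyrotropin-releasing hormone, and Adgrf1 (GPR110) is an adhesion G protein-coupled receptor. Prex1 is a PIP3- and Gβγ-responsive exchange factor that activates Rac, Camk2b is the β subunit of calcium/calmodulin-dependent kinase II, and Pard3b is a relative of the polarity scaffold Par3. Ttc36 is a small tetratricopeptide repeat protein and Gm30332 is a predicted long noncoding RNA.

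Closed peaks differed in where they lay. Only that of Adgrf1 was a promoter peak, 46 bp past the start. Those of Prex1, Camk2b, Pard3b and Trhde lay in the first intron, 36775, 15415, 11271 and 1683 bp from the start. That of Gm30332 lay in intron 3 of 4, within a hAT-Charlie DNA transposon copy. The remaining pair lay in the neighbouring gene: that of Dkk4 in intron 13 of 13 of Polb, 485 bp past the end of Dkk4, and that of Ttc36, 1858 bp upstream, in the last exon of Kmt2a (exon 36 of 36, annotated as 3′ UTR). Promoter windows were in the RefSeq table for 6 of the 8 genes (build GRCm38.p6, not Dkk4 and Ttc36). Of these, the 250 bases before the start are shown for the 3 whose windows hold a peak, because they include a promoter that is itself the closed peak (Adgrf1) beside 2 that changed less than their closed peak (Pard3b and Prex1). Each is written 5′ to 3′ on the gene's strand, in lower case, with capitals for bases inside the deposited peaks, which cover the whole Prex1 window. The windows are chr17:43270097-43270346 on the plus strand for Adgrf1, chr1:61638574-61638823 on the plus strand for Pard3b and chr2:166713833-166714082 on the minus strand for Prex1.
Adgrf1: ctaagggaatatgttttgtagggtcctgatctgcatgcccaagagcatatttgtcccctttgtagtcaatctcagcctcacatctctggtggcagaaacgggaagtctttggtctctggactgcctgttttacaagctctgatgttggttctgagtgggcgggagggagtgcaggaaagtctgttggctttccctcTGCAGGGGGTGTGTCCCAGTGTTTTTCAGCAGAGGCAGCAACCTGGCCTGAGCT
Pard3b: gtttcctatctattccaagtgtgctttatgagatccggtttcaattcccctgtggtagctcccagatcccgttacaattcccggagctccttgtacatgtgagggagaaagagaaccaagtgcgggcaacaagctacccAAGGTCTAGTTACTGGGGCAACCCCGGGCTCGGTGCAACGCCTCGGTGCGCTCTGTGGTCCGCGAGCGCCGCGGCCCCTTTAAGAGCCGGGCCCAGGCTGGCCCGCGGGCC
Prex1: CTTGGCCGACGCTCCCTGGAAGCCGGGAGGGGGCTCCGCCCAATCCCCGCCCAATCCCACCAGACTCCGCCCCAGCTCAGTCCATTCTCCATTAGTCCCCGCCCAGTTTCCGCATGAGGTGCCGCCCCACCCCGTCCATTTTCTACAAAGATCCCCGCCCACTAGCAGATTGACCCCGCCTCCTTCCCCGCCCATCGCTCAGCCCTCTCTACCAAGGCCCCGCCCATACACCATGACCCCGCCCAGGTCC
The Adgrf1 window had 2 CpG dinucleotides and 52.0% GC, against a median of 6 CpG and 52.4% GC over 32851 promoter windows of this length. Pard3b had 17 CpG and 60.0% GC, and Prex1 16 CpG and 66.4% GC. The GC box GGGCGG, searched on both strands and found in 32.7% of all windows, occurred 9 times in the Prex1 window, once in the Adgrf1 window outside its peak and not in that of Pard3b. The other motifs searched on both strands, none of which contains another, had no match in these 3 windows. They were the forkhead motif of FOXA factors, TGTTTAC, found in 3.17% of all windows, and the HNF4 motif CAAAGTCCA, found in 0.384%. The motif of CEBP factors, TTGCNNAA, was in 9.56% of all windows and that of AP-1, TGANTCA, in 6.75%. The STAT5 motif TTCNNNGAA was in 7.02%, a box of letters TATAAA in 12.4% and the E box CACGTG in 6.02%. Of the 3 windows without a peak, that of Camk2b held 3 GC boxes, that of Gm30332 held 1 FOXA and 1 AP-1 match, and that of Trhde held none of the motifs. These are descriptions of letters, not of binding.

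**Figure D1:**
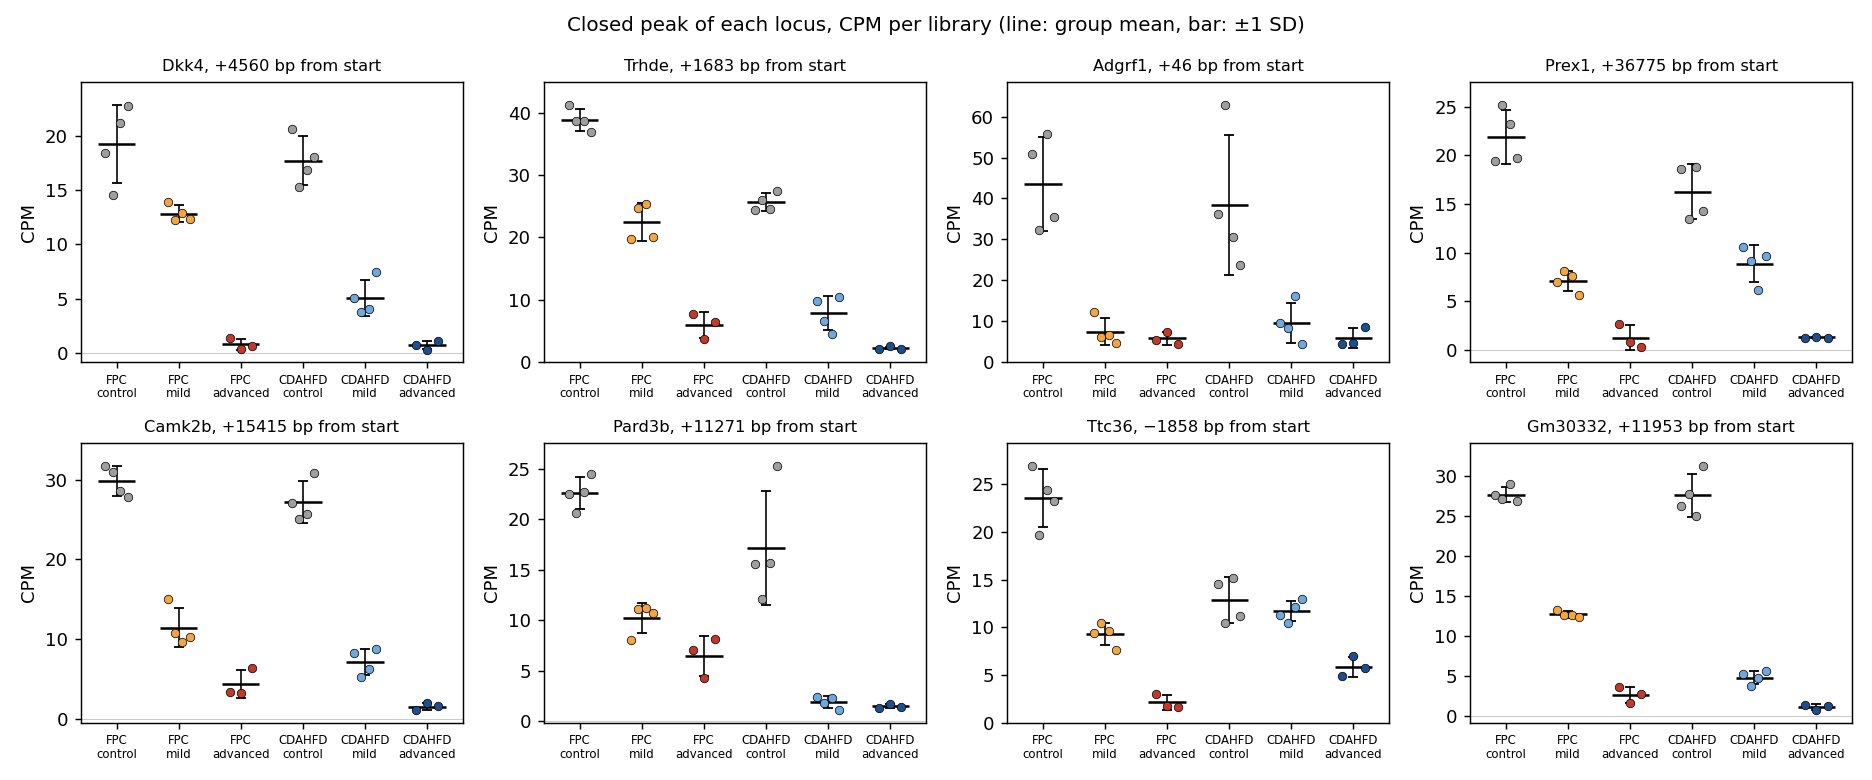
Signal of the closed peak of each locus in CPM (y axis, from 0) by group (x axis); each point is 1 library, the line the group mean and the bar ±1 SD. In Dkk4 the advanced libraries lay between 0.334 and 1.35 CPM and the controls between 14.6 and 22.8 CPM; in Ttc36 the CDAHFD mild libraries (10.4 to 13.0 CPM) lay within the range of their controls (10.5 to 15.2 CPM) but for 1.

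The Dkk4 peak (mm10 chromosome 8, 22628503 to 22628703) gave 18.4, 14.6, 21.2 and 22.8 CPM in FPC controls, 13.9, 12.2, 12.9 and 12.3 CPM in FPC mild mice and 1.35, 0.427 and 0.636 CPM in FPC advanced mice. With CDAHFD the controls gave 20.6, 15.3, 16.9 and 17.995 CPM, the mild mice 5.05, 3.79, 4.05 and 7.43 CPM and the advanced mice 0.748, 0.334 and 1.14 CPM. The advanced libraries were far below their controls in both diets. FPC mild libraries stayed just below the lowest control and CDAHFD mild libraries were far below it. The advanced change was 24.1-fold lower with FPC (log2 −4.59 ± 0.31 SE) and 22.8-fold lower with CDAHFD (−4.51 ± 0.30), each from 3 libraries with 2 to 8 counts at this peak. The mild changes were −0.59 ± 0.18 and −1.77 ± 0.19.

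The Dkk4 promoter peak, 519 bp upstream of the start and the only other peak of the locus, changed less. It gave 12.8, 9.81, 18.3 and 14.7 CPM in FPC controls, 15.3, 13.6, 10.3 and 8.998 CPM in mild and 4.38, 2.71 and 6.05 CPM in advanced mice. In the CDAHFD arm it gave 16.8, 14.4, 16.8 and 12.2, then 6.99, 7.18, 7.77 and 7.64, then 4.17, 2.67 and 4.27 CPM. FPC mild libraries overlapped their controls and the other 3 diet groups did not. The advanced log2 changes were −1.70 ± 0.24 and −1.999 ± 0.24, so the promoter change was smaller than that of the closed peak by 2.89 with FPC and 2.51 with CDAHFD on the log2 scale. The closed peak held 57.3% of the locus' counts in FPC controls and 15.4% in FPC advanced mice. Beyond Dkk4 itself, both peaks at the start of A930013F10Rik, a noncoding gene inside the Polb span 7765 and 8442 bp from the closed peak, changed by −4.09 and −3.29 with FPC and −3.45 and −3.56 with CDAHFD in advanced mice. The Polb promoter peak, 24857 bp away, changed by 0.09 and −0.06.

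In Trhde every peak within 50 kb was lower in both diets, the promoter included. The closed peak (chromosome 10, 114799587 to 114799787) gave 41.2, 38.7, 38.7 and 36.9 CPM in FPC controls, 19.7, 24.8, 25.3 and 20.0 CPM in mild and 7.76, 3.70 and 6.36 CPM in advanced mice. CDAHFD controls gave 24.4, 26.0, 24.5 and 27.5 CPM, mild mice 9.84, 6.53, 4.53 and 10.4 CPM and advanced mice 2.14, 2.50 and 2.13 CPM. The 3 groups of each diet were stepped with no overlap, and CDAHFD controls were below FPC controls (log2 −0.60 ± 0.15). CDAHFD chose this gene (−3.50 ± 0.23 advanced, −1.67 ± 0.17 mild). In the FPC arm, which did not, edgeR's quasi-likelihood test called the peak lower at both stages, by 2.73 ± 0.20 in advanced (adjusted p = 3.3e-11) and 0.79 ± 0.15 in mild mice (adjusted p = 0.00042).

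The Trhde promoter peak, 376 bp upstream, gave 15.02, 12.7, 11.1 and 12.9 CPM in FPC controls, 3.82, 4.85, 6.20 and 6.67 CPM in mild and 2.70, 1.57 and 0.955 CPM in advanced mice. It fell with FPC by 2.89 ± 0.27 (adjusted p = 1.9e-09) in advanced and 1.24 ± 0.21 (adjusted p = 8.9e-05) in mild mice, at least as far as the closed peak in its point values. With CDAHFD it went from 9.04, 7.78, 7.01 and 8.32 to 0.906, 1.44, 0.647 and 0.733 CPM in mild and 0.214, 0.501 and 0.711 CPM in advanced mice, which left little signal to lose after the mild stage. The peaks 882 bp (in a CpG island), 2361 and 3572 bp into intron 1 fell with FPC by 3.05 ± 0.32, 2.18 ± 0.19 and 3.19 ± 0.30 in advanced mice, with adjusted p of 1.2e-08, 6.8e-10 and 2.7e-09. With CDAHFD their changes were −4.30, −2.72 and −5.58. The closed peak kept 38.3% to 43.8% of the locus' counts across the FPC groups, as the locus moved together. A peak outside the locus limit, 285105 bp into the gene, changed by −3.07 and −3.11, and one 749378 bp from the start by −0.52 and −0.64. Among the 6 genes with a promoter window, the RefSeq start differed from the one the deposited distances use only for Trhde, by 932 bp. That would put the Trhde promoter peak inside the transcript. The starts of Dkk4 and Ttc36 were not compared in this way.

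In Adgrf1 the closed peak was the promoter peak. Its peak (chromosome 17, 43270293 to 43270493) gave 50.9, 32.3, 55.8 and 35.4 CPM in FPC controls, 12.3, 6.10, 6.54 and 4.67 CPM in mild and 5.39, 7.41 and 4.46 CPM in advanced mice. With CDAHFD it gave 36.2, 62.8, 30.5 and 23.8, then 9.58, 8.36, 16.2 and 4.40, then 4.27, 4.67 and 8.54 CPM. Controls varied more than at any other closed peak, and mild libraries overlapped advanced ones in both diets. The FPC mild change, which chose it, was −2.60 ± 0.33, and the advanced change −2.92 ± 0.37, so 89.0% of the advanced change was present at the mild stage. In the CDAHFD arm the peak fell by 2.05 ± 0.30 in mild (edgeR, adjusted p = 3.8e-06) and 2.73 ± 0.35 in advanced mice (adjusted p = 3.0e-07). The step from mild to advanced, −0.68 ± 0.40, did not pass (adjusted p = 0.26).

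The 5 other Adgrf1 peaks were not alike. In the CDAHFD advanced comparison the peak 9366 bp into intron 1 fell by 2.69 ± 0.30 (adjusted p = 1.9e-08). It held 8.19, 9.27, 10.9 and 9.51 CPM in controls and 1.82, 0.334 and 1.99 CPM in advanced mice, with no overlap. The 2 peaks in exon 12 of 16, 39985 and 40207 bp from the start, fell by 2.73 ± 0.33 and 2.26 ± 0.30 (adjusted p = 7.8e-08 and 5.1e-07), and the peak at 5043 bp by 1.47 ± 0.26 (adjusted p = 2.6e-05). The intergenic peak 27575 bp upstream was −0.32 ± 0.23 and did not pass (adjusted p = 0.25), though it did with cyclic loess offsets (−0.57, adjusted p = 0.0392), with controls at 5.09 to 6.21 CPM and advanced mice at 3.34 to 5.41 CPM. In the FPC arm the same peaks changed by −3.62, −3.14, −2.46, −1.39 and 0.42. The promoter is thus 1 of 5 peaks of Adgrf1 that were lower in both diets.

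The Prex1 locus showed closing deep in the first intron beside a promoter that hardly moved. The closed peak (chromosome 2, 166676957 to 166677157, intron 1 of 39) gave 19.4, 25.2, 23.2 and 19.7 CPM in FPC controls, 7.03, 8.08, 7.57 and 5.67 CPM in mild and 2.70, 0.855 and 0.318 CPM in advanced mice. CDAHFD controls gave 18.6, 13.5, 18.8 and 14.3 CPM, mild mice 10.6, 9.14, 6.15 and 9.63 CPM and advanced mice 1.28, 1.33 and 1.28 CPM. Both series stepped down without overlap. The changes were −4.11 ± 0.30 and −1.63 ± 0.21 with FPC and −3.64 ± 0.29 and −0.87 ± 0.20 with CDAHFD, advanced then mild.

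At the Prex1 start, a pair of peaks overlapping by 65 bp covered the CpG-rich window printed above. The peak 43 bp upstream gave 48.5 to 58.2 CPM in FPC controls, 53.5 to 56.5 CPM in advanced mice, 50.6 to 58.5 CPM in CDAHFD controls and 45.1 to 49.4 CPM in CDAHFD advanced mice. The FPC groups overlapped and the CDAHFD groups did not. Its changes were 0.05 ± 0.07 with FPC and −0.22 ± 0.06 with CDAHFD, which is 4.16 and 3.42 log2 units less negative than the closed peak. The peak 178 bp upstream changed by 0.19 ± 0.08 and −0.29 ± 0.07, and both values are small beside the fall in the intron. A second intron 1 peak, 38112 bp from the start and 1337 bp from the closed peak, gave 9.69, 10.1, 9.58 and 9.11 CPM in FPC controls against 0.337, 0.427 and 0.318 CPM in advanced mice (−4.65 ± 0.47). In CDAHFD controls it was already at 5.37, 1.79, 2.85 and 1.19 CPM, below every FPC control, and the CDAHFD advanced change was −2.38 ± 0.48 (−4.72 with cyclic loess offsets). An intergenic peak 14544 bp upstream, in a MaLR repeat, changed by −1.07 ± 0.21 with FPC and −0.00 ± 0.18 with CDAHFD.

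**Figure D2:**
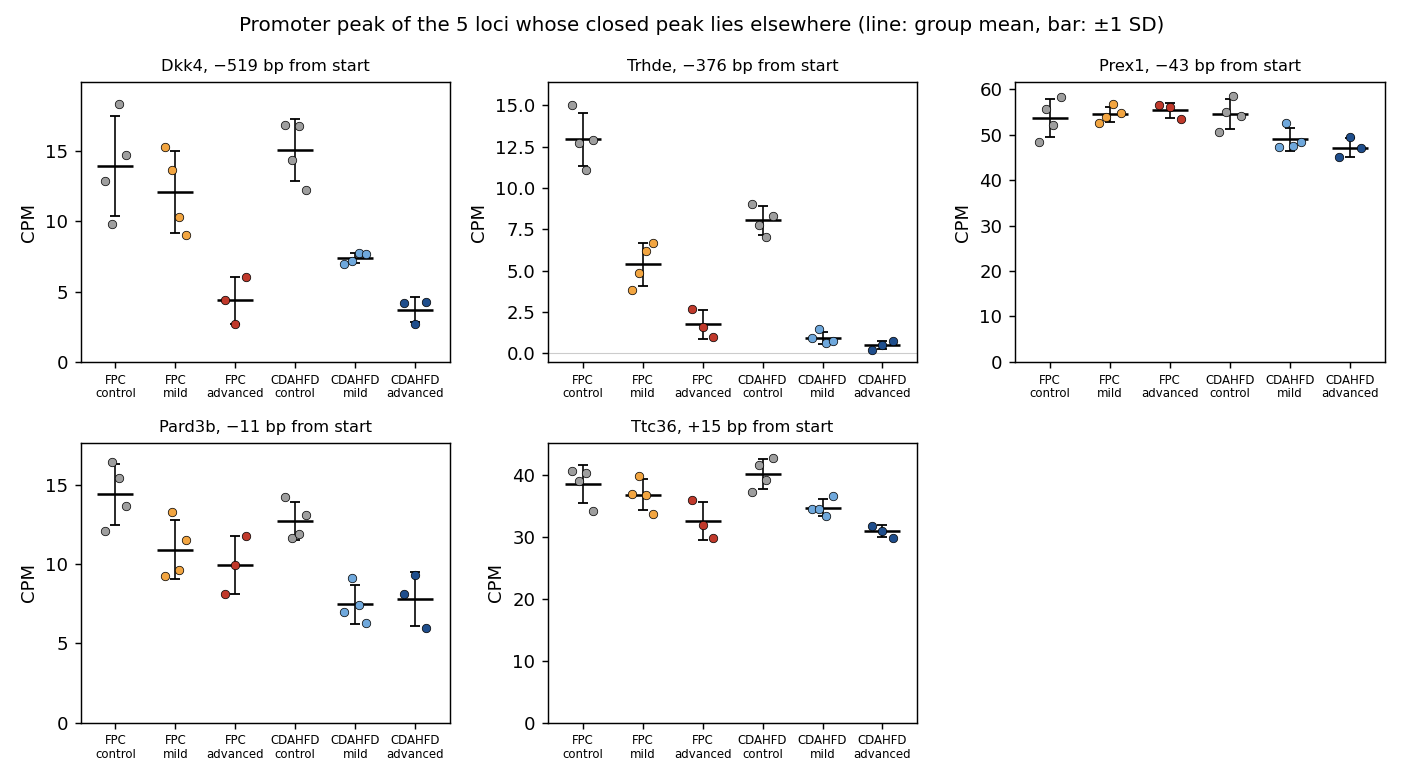
Signal of the promoter peak in CPM (y axis, from 0) by group (x axis) in the 5 loci whose closed peak lies elsewhere; each point is 1 library, the line the group mean and the bar ±1 SD. The Prex1 libraries sit between 45.1 and 58.5 CPM in every group, whereas the Trhde libraries fall from 11.1–15.02 to 0.955–2.70 CPM with FPC.

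Camk2b had no peak at its start within 1000 bp, and its closed peak (chromosome 11, 6050233 to 6050433, intron 1 of 20) was the strongest of the locus in every control library. It gave 31.7, 31.0, 28.6 and 27.8 CPM in FPC controls, 15.1, 10.8, 9.64 and 10.3 CPM in mild and 3.37, 3.28 and 6.36 CPM in advanced mice. With CDAHFD it gave 27.1, 25.1, 25.7 and 30.9, then 8.28, 5.22, 6.31 and 8.79, then 1.07, 2.003 and 1.56 CPM. The groups of each diet were separate, and the CDAHFD advanced libraries were all below the FPC advanced ones. CDAHFD chose the gene (−4.17 ± 0.24 advanced, −1.91 ± 0.16 mild). In the FPC arm the peak fell by 2.78 ± 0.21 (edgeR, adjusted p = 4.8e-11) and 1.39 ± 0.17 (adjusted p = 1.2e-06), and from mild to advanced by 1.39 ± 0.22 (adjusted p = 3.4e-05).

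Peaks of Camk2b moved in both directions. The weak peak 24817 bp into intron 1, in an L1MB3 LINE copy, gave 2.18 to 3.03 CPM in FPC controls and 0, 0.285 and 0.337 CPM in advanced mice, a fall of 3.57 ± 0.58 (adjusted p = 1.1e-05) that rests on few counts and was −7.79 with cyclic loess offsets. In CDAHFD controls it was at 4.04 to 7.13 CPM and in advanced mice at 0.107 to 0.167 CPM. The peak 46198 bp upstream, in intron 5 of 5 of Nudcd3, fell by 1.17 ± 0.21 with FPC (adjusted p = 3.4e-05), from 10.4–12.2 to 4.72–5.55 CPM. In intron 2 of 20, a pair of peaks annotated as LTR53 was higher with CDAHFD. The one at 44375 bp went from 11.9, 7.93, 7.84 and 10.2 to 20.6, 15.7, 25.9 and 37.3 CPM in mild and 13.5, 33.4 and 38.7 CPM in advanced mice (1.41 ± 0.34 and 1.57 ± 0.36). With FPC it was 0.79 ± 0.37 and did not pass (adjusted p = 0.070), though it did with cyclic loess offsets (0.88, adjusted p = 0.047), with the diet arm alone (0.81, adjusted p = 0.0288) and without FPC control 1 or 2, FPC mild 1 or CDAHFD advanced 1 (0.79 to 1.00, adjusted p of 0.0413 to 0.0467). One FPC control, at 4.55 CPM, was well below the other 3 (12.9 to 19.9 CPM). The peaks at 39228 and 40297 bp were 0.23 ± 0.14 and 0.22 ± 0.21 with FPC, and neither passed.

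Pard3b closed more with CDAHFD than with FPC in value. The closed peak (chromosome 1, 61649995 to 61650195, intron 1 of 22) gave 22.5, 20.7, 22.7 and 24.5 CPM in FPC controls, 8.03, 11.1, 11.2 and 10.7 CPM in mild and 7.08, 4.27 and 8.11 CPM in advanced mice. In CDAHFD controls it gave 15.5, 12.1, 15.7 and 25.3 CPM, in mild mice 2.33, 1.83, 2.27 and 1.05 CPM and in advanced mice 1.28, 1.67 and 1.42 CPM. Both fatty liver groups of each diet were below all its controls, and mild libraries overlapped advanced ones in both diets. With FPC the lowest mild library, at 8.03 CPM, was just below the highest advanced one, at 8.11 CPM. The CDAHFD changes, which chose it, were −3.55 ± 0.28 advanced and −3.22 ± 0.24 mild, so the mild change was 90.6% of the advanced one. In the FPC arm the peak fell by 1.81 ± 0.23 in advanced (edgeR, adjusted p = 2.3e-07) and 1.13 ± 0.20 in mild mice (adjusted p = 0.00015). As at the other closed peaks tested, these tests are not wholly free of the choice, because control values helped the peak pass the abundance filter. It passed narrowly, with its highest values in controls of both diets.

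Near the Pard3b closed peak, 2 more peaks fell with it. The one at 11395 bp overlaps it by 76 bp and so shares reads, and fell with FPC by 1.59 ± 0.22 (adjusted p = 8.7e-07). The one at 13275 bp, in an LTR33 copy, fell by 2.06 ± 0.29 (adjusted p = 1.3e-06), from 6.06–11.6 to 1.42–2.70 CPM, and was −3.19 with cyclic loess offsets. At the start, the promoter peak 11 bp upstream gave 12.1, 16.4, 15.5 and 13.7 CPM in FPC controls and 8.09, 9.97 and 11.8 CPM in advanced mice. It fell by 0.54 ± 0.18 (adjusted p = 0.012), without overlap but by much less than the intron peaks, and the call was lost without FPC advanced library 1 (−0.41, adjusted p = 0.0809). The FPC mild value, −0.40 ± 0.16, did not pass (adjusted p = 0.067) but did without FPC control 1 (−0.48, adjusted p = 0.0457) or FPC mild 2 (−0.52, adjusted p = 0.0325). The peak 100 bp past the start, which overlaps the promoter peak by 89 bp, fell by 0.45 ± 0.17 (adjusted p = 0.024), a call lost without any 1 of FPC control 2, FPC control 3, FPC advanced 1 and FPC advanced 2 (−0.32 to −0.43, adjusted p of 0.0534 to 0.137) and with cyclic loess offsets (−0.33, adjusted p = 0.0991). With CDAHFD these changed by −0.70 ± 0.17 and −0.33 ± 0.16.

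At Ttc36 the closed peak changed less with CDAHFD than with FPC at both stages. The closed peak (chromosome 9, 44804709 to 44804909) gave 26.9, 19.6, 24.4 and 23.3 CPM in FPC controls, 9.44, 10.4, 9.64 and 7.67 CPM in mild and 3.04, 1.71 and 1.59 CPM in advanced mice, changes of −1.35 ± 0.16 and −3.49 ± 0.22. CDAHFD controls gave 14.5, 10.5, 15.2 and 11.2 CPM, mild mice 11.3, 10.4, 12.1 and 13.0 CPM and advanced mice 4.92, 7.01 and 5.69 CPM. Every CDAHFD control lay below every FPC control (log2 −0.87 ± 0.15), and only the advanced CDAHFD mice were apart from their controls. In that arm, which did not choose the gene, the peak fell by 1.16 ± 0.18 in advanced mice (edgeR, adjusted p = 5.1e-06) and was −0.14 ± 0.15 in mild mice (adjusted p = 0.48). From mild to advanced it fell by 1.02 ± 0.18 (adjusted p = 0.00038).

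The Ttc36 promoter peak, centred 15 bp past the start, gave 40.7, 39.0, 40.3 and 34.1 CPM in FPC controls and 35.9, 31.9 and 29.9 CPM in advanced mice (−0.25 ± 0.08). In CDAHFD controls it gave 37.3, 41.6, 39.2 and 42.8 CPM and in advanced mice 31.8, 31.0 and 29.9 CPM. That was a fall of 0.37 ± 0.08 (adjusted p = 0.00018), without overlap, and one of 0.20 ± 0.07 in mild mice (adjusted p = 0.020), which missed without CDAHFD mild library 3 (−0.19, adjusted p = 0.0529). With CDAHFD the peaks 342 bp upstream and 1105 bp downstream were −0.09 ± 0.16 and −0.26 ± 0.17 in advanced mice (adjusted p = 0.65 and 0.21). The weak peak 12720 bp upstream, in the span of Kmt2a, fell by 0.52 ± 0.22 (adjusted p = 0.047), but this call was lost under 5 other settings and without any 1 of 14 libraries (adjusted p of 0.0502 to 0.163), while cyclic loess offsets gave −1.13. With FPC the closed peak was the one deep fall of the locus, 3.24 log2 units below the promoter's change.

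Gm30332 lies inside the span of Lmo3, and its closed peak (chromosome 6, 138455826 to 138456026) held 82.1% of the locus' counts in FPC controls. It gave 27.6, 27.0, 28.9 and 26.8 CPM in FPC controls, 13.3, 12.6, 12.6 and 12.3 CPM in mild and 3.54, 1.57 and 2.71 CPM in advanced mice. With CDAHFD it gave 26.3, 27.7, 24.9 and 31.2, then 5.18, 3.66, 4.69 and 5.55, then 1.39, 0.668 and 1.28 CPM. Controls of both diets were alike in range (24.9 to 31.2 CPM), and the stages were separate in each. CDAHFD chose it (−4.55 ± 0.21 advanced, −2.51 ± 0.14 mild). In the FPC arm it fell by 3.42 ± 0.19 (edgeR, adjusted p = 3.3e-13), by 1.12 ± 0.14 in mild mice (adjusted p = 1.4e-06) and by 2.30 ± 0.20 from mild to advanced (adjusted p = 2.6e-08). The other peak of the locus, 33831 bp from the start in intron 2 of 4 of Lmo3, fell less with FPC, by 1.05 ± 0.24 (adjusted p = 0.00059), from 5.09–6.58 to 2.55–3.42 CPM.

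**Figure D3:**
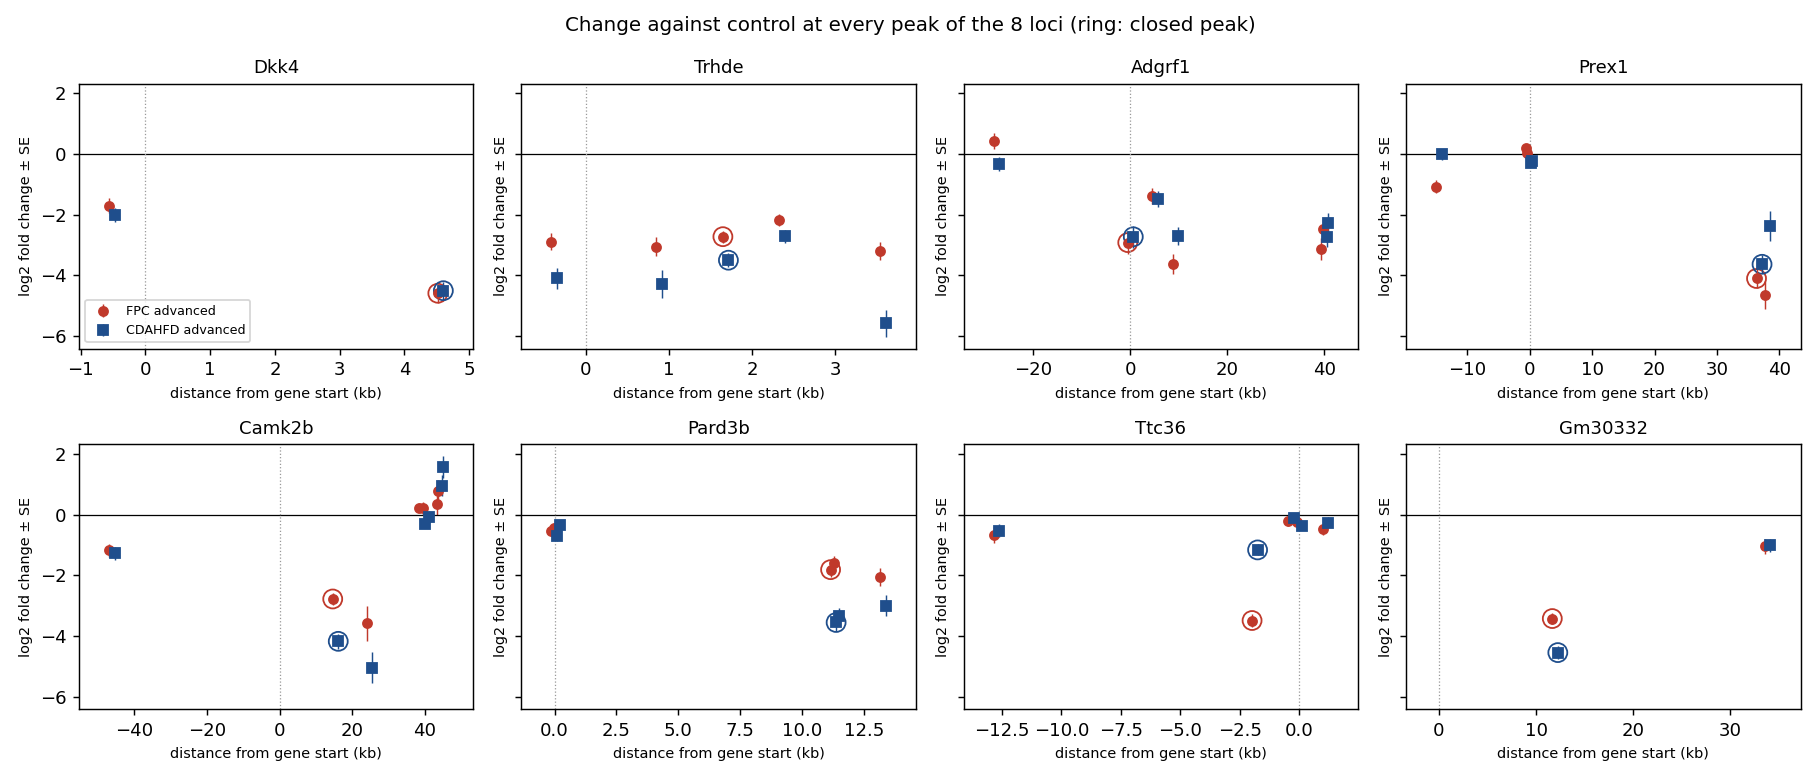
Log2 fold change of advanced against control mice (y axis, ±SE of the edgeR fit) at each of the 37 peaks by distance from the gene start in kb (x axis, a different range in each panel; FPC circles and CDAHFD squares are shifted slightly apart). Rings mark the closed peak: in Prex1, Pard3b and Ttc36 the promoter peaks lie between −0.70 and 0.05 while the closed peak lies at −1.16 to −4.11, and in Trhde all peaks lie at −2.18 or lower.

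Across the loci, counts are read only in the diet arms that did not choose a gene by rank, within the limits given at the start. The closed peaks are a partial exception. High control values of both diets helped each pass the abundance filter, and that of Pard3b passed most narrowly of those tested. In the FPC arm, all 4 closed peaks concerned (Trhde, Camk2b, Pard3b and Gm30332) were called lower in advanced mice, where 28.0% of all peaks were called lower and 27.6% higher. All 4 were also called lower in mild mice (13.6% of all peaks lower, 15.1% higher) and from mild to advanced (14.6% lower, 14.7% higher). Of their 15 other peaks, 11 were called lower and 0 higher in advanced mice, with 10 lower and 0 higher in mild mice (edgeR). Higher values with an unadjusted p under 0.05 numbered 1 at each stage, and DESeq2 gave the same counts of 11 and 10 lower and 0 higher. The median change of these 15 was −1.17 and −0.68, beside −0.02 and −0.00 over all peaks. In the CDAHFD arm, the closed peaks of Ttc36 and Adgrf1 were both called lower in advanced mice (28.8% of all peaks lower, 26.7% higher). Only Adgrf1's was in mild mice (20.0% lower, 20.7% higher) and only Ttc36's from mild to advanced (7.26% lower, 9.28% higher). Of the 9 other peaks of these genes, 6 were called lower and 0 higher at each stage (edgeR; 0 higher also at an unadjusted p under 0.05 and with DESeq2, which called 5 and 6 lower), with medians of −0.52 and −0.63 beside −0.03 and −0.01 over all peaks. Neighbouring and overlapping peaks of a locus are not independent of each other. Over all 29 other peaks, which include the comparisons that chose the genes and from which nothing is read, 21 were lower and 1 higher with FPC and 20 lower and 2 higher with CDAHFD in advanced mice.

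**Figure D4:**
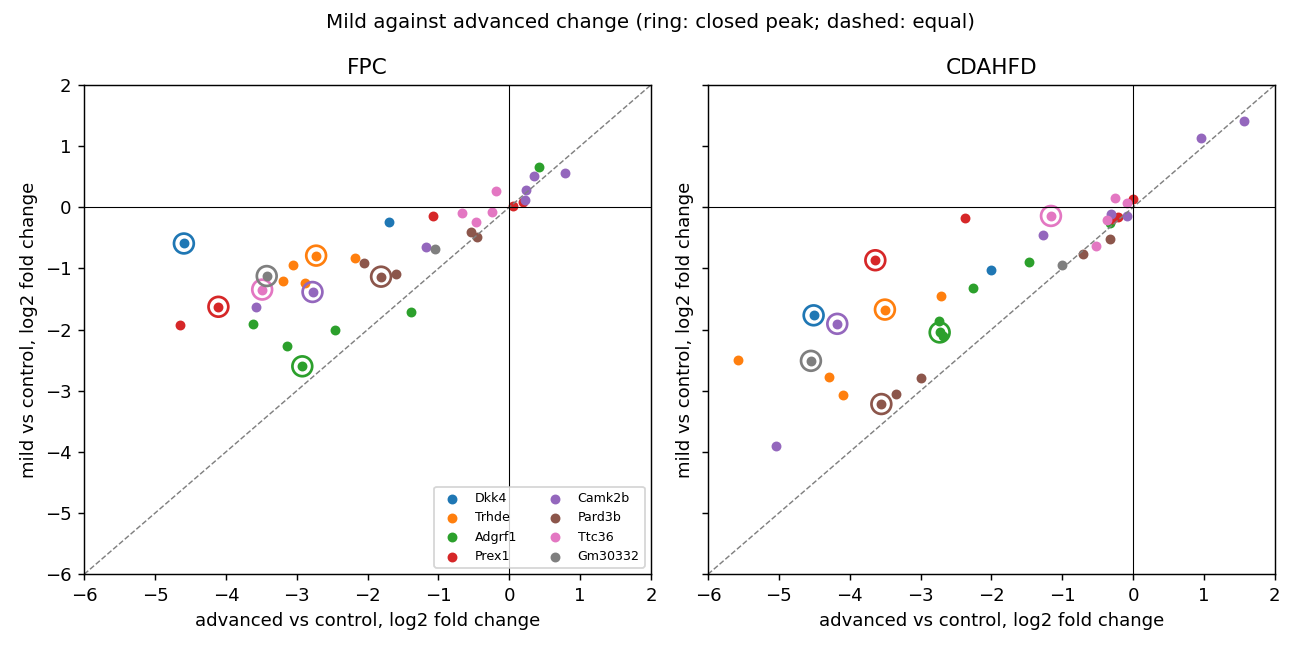
Change in mild mice (y axis) against change in advanced mice (x axis), both as log2 fold changes from control, for the 37 peaks coloured by locus, with FPC left and CDAHFD right; rings mark closed peaks and the dashed line equal changes. The FPC Dkk4 ring (−4.59, −0.59) lies farthest above the line and the FPC Adgrf1 ring (−2.92, −2.60) close to it.

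The loci differed in how much of the advanced change was present in mild mice. With FPC, the mild change of the closed peak was 12.9% of the advanced one for Dkk4, 29.0% for Trhde, 32.9% for Gm30332, 38.6% for Ttc36, 39.6% for Prex1, 49.9% for Camk2b, 62.7% for Pard3b and 89.0% for Adgrf1. Over the 1212 peaks called lower by more than 4-fold in FPC advanced mice, the median was 38.6%. With CDAHFD the order was Ttc36 at 12.3%, Prex1 at 23.8%, Dkk4 at 39.2%, Camk2b at 45.6%, Trhde at 47.8%, Gm30332 at 55.2%, Adgrf1 at 75.0% and Pard3b at 90.6%, beside a median of 60.1% over 1333 peaks. Adgrf1 was chosen by its FPC mild change and Pard3b by CDAHFD changes that include the mild one, so their high shares in those arms come from values the choice used. In the arm that did not choose them the shares were 75.0% and 62.7%. Low shares also use values of the choice. Dkk4, Prex1 and Ttc36 with FPC, and Dkk4, Prex1, Camk2b, Trhde and Gm30332 with CDAHFD, were chosen by their advanced change. The shares divide by that change, so this choice favours low shares, also beside the medians. All these shares divide log2 values, depend on advanced groups of 3 mice and are given as a description.

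Differences between the diets touch an arm that chose the gene and are also descriptions. In advanced mice the CDAHFD change of the closed peak minus the FPC change was −1.74 ± 0.38 for Pard3b, −1.40 ± 0.35 for Camk2b and 2.33 ± 0.29 for Ttc36, where the sign means less closing with CDAHFD. Dkk4, Prex1 and Adgrf1 differed by 0.08 ± 0.57, 0.47 ± 0.50 and 0.19 ± 0.54. In mild mice the difference was −2.08 ± 0.32 for Pard3b, −1.39 ± 0.20 for Gm30332, −1.17 ± 0.27 for Dkk4 and 1.20 ± 0.22 for Ttc36. Of all peaks, 0.690% had a lower and 0.910% a higher advanced change with CDAHFD than with FPC at an adjusted p under 0.05, and 1.84% and 1.63% in mild mice.

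**Figure D5:**
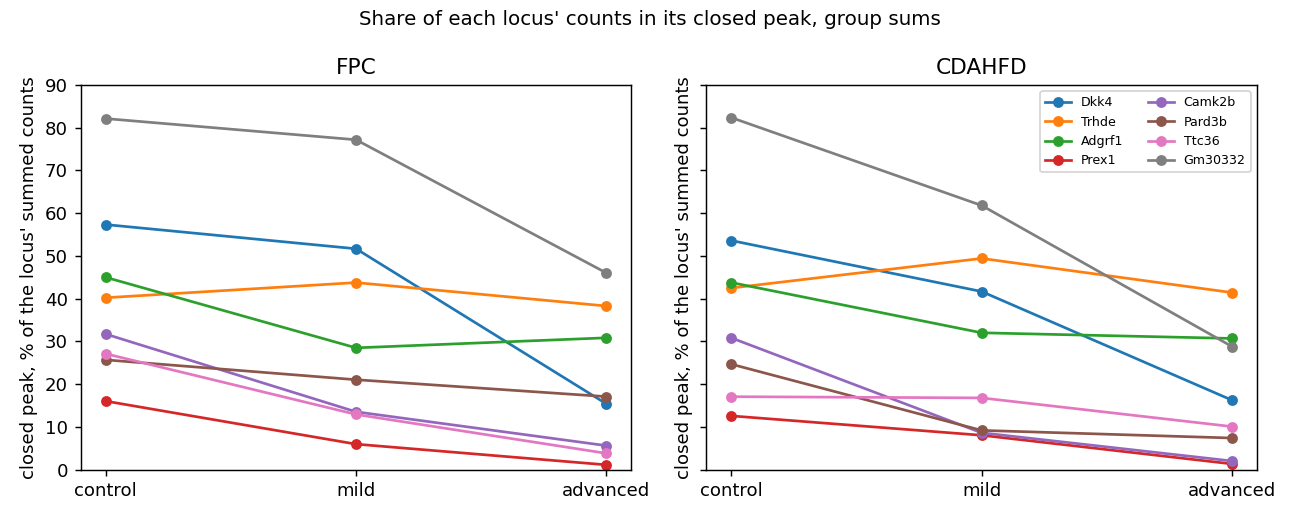
Share of each locus' summed counts that fell in its closed peak (y axis, percent of counts over all mice of a group) in control, mild and advanced mice (x axis), FPC left and CDAHFD right. The share of Gm30332 drops from 82.1% to 46.0% with FPC and from 82.4% to 28.8% with CDAHFD, while that of Trhde stays between 38.3% and 49.4%.

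The weight of 1 peak in a gene's total varied. Summed over all peaks within 50 kb, Trhde changed by −2.75 ± 0.16 with FPC in advanced mice and by −2.70 ± 0.16 without its closed peak. The sum of Gm30332 changed by −2.72 ± 0.11 with the closed peak and −1.14 ± 0.23 without it, and that of Dkk4 by −2.80 ± 0.21 and −1.80 ± 0.25. Prex1 changed by only −0.40 ± 0.06 with it and −0.17 ± 0.05 without, because its promoter pair held most of the counts. Camk2b was −0.39 ± 0.21 with it and 0.08 ± 0.23 without. So the sum was as low as the closed peak in Trhde and far less so in Prex1 and Camk2b.

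Around the closed peaks, which were picked for their fall, called falls were more frequent nearby than farther away. Of all peaks within 50 kb of a closed peak, whatever their gene, the 3 within 1 kb were called lower in both diets in advanced mice. They belong to Trhde and Pard3b only, and the one of Pard3b overlaps its closed peak by 76 bp and so shares reads with it. At 1 to 10 kb, 12 of 15 were lower with FPC and 11 with CDAHFD. At 10 to 50 kb, 6 of 22 were lower and 6 higher with FPC, and 7 lower and 6 higher with CDAHFD; over all peaks 28.0% and 28.8% were called lower. These counts include the comparisons that chose the loci and are given as a description. Beside Ttc36, both Tmem25 promoter peaks, 4922 and 5502 bp from the closed peak, changed by −0.06 and 0.04 with FPC. Within the span of Camk2b lay 2 peaks that the deposited names assign to Ykt6, 49729 and 49843 bp from the closed peak. They changed by 2.83 and 1.83 with FPC and by 2.57 and 1.52 with CDAHFD.

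Paralogs and partners of the 8 genes were called lower and higher at shares close to those of all genes. On a list of 68 such genes, 56 were measured, with counts summed over peaks within 50 kb. With FPC 19 were called lower and 16 higher in advanced mice, beside 30.5% and 30.7% of all genes. With CDAHFD 20 were called lower and 14 higher, beside 30.0% and 28.5%. Among Wnt genes, Dkk2, a Dkk4 paralog, fell by 1.14 ± 0.18 and 1.51 ± 0.18 and Wif1, a secreted Wnt binder, by 0.56 ± 0.07 and 0.33 ± 0.07 (FPC, then CDAHFD). Axin2, a Wnt feedback gene, rose by 0.22 ± 0.07 and 0.29 ± 0.07. Of the Rac exchange factors, Prex2 fell by 1.16 ± 0.22 and 1.45 ± 0.23 and Tiam2 by 0.85 ± 0.10 and 1.23 ± 0.10, while Vav1, Vav2 and Vav3 did not pass in either diet. Camk2d, a paralog of Camk2b, was −0.11 ± 0.08 and −0.07 ± 0.08 and did not pass, and Camkk2, a kinase upstream of other CaM kinases, rose by 0.33 ± 0.13 and 0.33 ± 0.12. Trh, which encodes the hormone that Trhde degrades, rose by 1.13 ± 0.15 and 1.73 ± 0.14, and Anpep and Enpep, related aminopeptidases, fell by 0.31 and 0.41 with FPC and by 0.36 and 0.32 with CDAHFD. Adgrg1, an adhesion receptor like Adgrf1, rose by 2.90 ± 0.17 and 2.99 ± 0.16, the opposite of Adgrf1, and Adgrf5 fell by 0.65 ± 0.18 and 0.59 ± 0.16. Hpd, an enzyme of tyrosine breakdown, fell by 0.47 ± 0.11 and 0.40 ± 0.10. Of the polarity genes, Pard3 fell by 0.32 ± 0.06 and 0.13 ± 0.05 and Cdc42, Llgl1 and Llgl2 rose in both diets, by 0.22 to 0.56.

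Peaks elsewhere followed the same library pattern, as a description over 22 libraries that share groups and depth. The peak of another gene most like each closed peak in log2 CPM was near Gm20319 for Dkk4 (Pearson r = 0.977), Gm31938 for Trhde (0.984), Mir99a for Adgrf1 (0.948) and Fam13a for Prex1 (0.976). It was near Stk25 for Camk2b (0.973), 4930548G14Rik for Pard3b (0.966), 4930478L05Rik for Ttc36 (0.960) and Gm12718 for Gm30332 (0.984). Among the 8 closed peaks the 28 pairwise r ran from 0.419 (Pard3b with Ttc36) to 0.966 (Gm30332 with Camk2b and with Trhde), with a median of 0.83.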

How the data were processed

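ATAC-seq libraries of tagged hepatocyte nuclei from 22 mice were compared. The authors' deposited values are un-normalized expected counts per 200 bp peak, in which 47.8% of values end in a fraction of 0.5; how fragments were shared between peaks is not given in the sources used here. BWA 0.7.5a-r405, SAMtools, HOMER, DESeq2 and the mm10 build are listed per the submitters' processing notes. Gene names, distances and annotations are the deposited ones. Counts were rounded to whole numbers and fitted over all 68827 peaks and 22 libraries with edgeR 4.0.16 (quasi-likelihood test, TMM scaling, group means, no covariate), with Benjamini-Hochberg adjustment over all peaks and calls at an adjusted p under 0.05. Log2 fold changes carry their SE from that fit, and CPM are TMM-scaled. No filter on low counts was used. Gene sums add all peaks within 50 kb of a start and were fitted likewise over 15686 genes. The fits were tested on simulated data.

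The members and gene lists were chosen with earlier results of these data known. A promoter peak is the strongest within 1000 bp of the start. For each locus the other peak with the most negative and the most positive mean advanced change was named by rule, and the remaining peaks for completeness. Abundance was judged by edgeR's average log2 CPM (median 3.31). Each library is 1 mouse, so the spread between libraries is that between mice; the labels name no batch. Library totals of 3785066 to 9328963 counts leave some closed peaks of advanced mice with few counts. Alternatives were other scalings, DESeq2 1.42.0, a low-count filter, rounding down, fits by arm, other distances and leaving out each library.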

Additional observations from a re-analysis of the deposited data

Results flagged for a closer look

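In 1 of 52 groups of 4 libraries examined, 1 library stood apart from the rest by Dixon's criterion, which flags about 1 group in 20 by chance. It was FPC mild library 1 at the closed peak of Pard3b, with 8.034 CPM, where the other 3 had 10.665 to 11.187 CPM.

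The change from control differed between the diets (CDAHFD minus FPC, log2, edgeR test of the difference, adjusted over all peaks) in 9 of 26 comparisons of closed and promoter peaks. Of all peaks, 0.690% were lower and 0.910% higher by this test in advanced mice, and 1.84% and 1.63% in mild mice. The loci were picked for large changes, so nothing is read from their count beside these shares. In mild mice the closed peaks changed more with CDAHFD at Pard3b, by −2.083 (SE 0.321, adjusted p = 0.000497), Gm30332, by −1.387 (SE 0.201, adjusted p = 0.000245), Dkk4, by −1.174 (SE 0.265, adjusted p = 0.0131), and Trhde, by −0.882 (SE 0.226, adjusted p = 0.028). The Trhde promoter peak differed by −1.834 (SE 0.351, adjusted p = 0.00401). In advanced mice the difference was −1.743 at Pard3b (SE 0.382, adjusted p = 0.018) and −1.397 at Camk2b (SE 0.354, adjusted p = 0.0403). At Ttc36 the change was smaller with CDAHFD, by 2.329 in advanced (SE 0.295, adjusted p = 8.61e-05) and 1.204 in mild mice (SE 0.220, adjusted p = 0.00276). All these genes but Dkk4 were chosen for their change in 1 of the diets, which favours such a difference. Dkk4 was chosen in both diets by advanced changes that share control libraries with its mild changes. None of these p-values, that of Dkk4 included, is independent evidence, and the differences are descriptions. Diet and feeding time cannot be told apart here.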

How the results depend on the processing

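No called change reversed its direction under any alternative run. Values near 0 that were not called did change sign, at the Ttc36 peak 342 bp upstream in CDAHFD advanced mice (−0.09, up to 0.03 over the alternatives) and the Prex1 promoter peak in FPC mild mice (0.03, down to −0.02 with 1 library left out). No call of a closed peak was lost in an arm that did not choose its gene. Dkk4 was chosen in both diets, so its values are descriptions. Its FPC mild change of −0.59 was −0.54 without FPC control 3 and −0.51 without FPC control 4. Counts of other peaks changed most with a limit of 20000 bp, which tests fewer peaks: 9 lower in FPC mild mice (15 at 50000 bp), and 0 higher in CDAHFD advanced and 0 in CDAHFD mild mice (2 each). With cyclic loess offsets, and with the libraries of the diet arm only, 2 were higher in FPC advanced mice (otherwise 1), and with library totals only, 1 in FPC mild mice (otherwise 0). With promoter peaks only, which 40 of the 56 listed genes have, 11 genes of the paralog and partner list were lower with FPC (19 over all peaks), and 10 lower and 8 higher with CDAHFD (20 and 14). Leaving out 1 library at a time gave 18 to 21 other peaks lower in FPC advanced, 14 to 16 in FPC mild, 19 to 21 in CDAHFD advanced and 15 to 20 in CDAHFD mild mice. It gave 0 to 2 higher in FPC advanced, 0 to 1 in FPC mild and 1 to 2 in CDAHFD advanced mice. Cyclic loess offsets made weak peaks more negative, such as the Trhde promoter peak with FPC (−3.84 in place of −2.89 in advanced mice). No paired analysis was possible because the labels give no replicate numbers that tie mice of different groups together. In advanced mice, closed peaks with few counts limit how exactly a fold change is known.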
